A study of Homo sapiens with 4 samples.

Results

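The keratins of basal, luminal and squamous epithelial cells were followed in 2 human bladder cancer cell lines, 5637 and T24. The 10 genes (KRT5, KRT6A, KRT7, KRT8, KRT10, KRT14, KRT16, KRT17, KRT18 and KRT19) were a list of family members, found by Ensembl ID among the 60617 genes of the table. The list was chosen with earlier results of these data known. Cells of each line were cultured in RPMI medium for 6 h with protodioscin, a steroidal saponin, or left untreated. The 4 groups were 5637 with protodioscin at 70 µM, untreated 5637, T24 with protodioscin at 60 µM and untreated T24, each with 1 library. The sample titles give the dose in µM while the protocol text writes these doses in mM, and the titles were followed. The controls are called untreated and no vehicle is named. Because each group had 1 library and the lines received different doses, a difference between treated and untreated cells within a line has no replicate check and no test.

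Keratins are the intermediate filament proteins of epithelial cells. A filament is built from pairs of 1 type I and 1 type II chain, so each cell type is marked by partners made together. Basal cells of stratified epithelia make KRT5 with KRT14, simple and glandular epithelia make KRT8 with KRT18, and KRT7 and KRT19 are added in ducts and in the urothelium that lines the bladder. KRT6A, KRT16 and KRT17 mark wounded or squamous epithelium. KRT10 is made with KRT1 in the upper, differentiating layers of the epidermis. In bladder tumours, KRT5, KRT6A and KRT14 are used as markers of the basal and squamous subtype.

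The list holds 4 type II genes, KRT5, KRT6A, KRT7 and KRT8, and 6 type I genes. On GRCh38 the type II genes and KRT18 lie on chromosome 12 and the other type I genes lie on chromosome 17. KRT5 (ENSG00000186081) lies at chr12:52514575-52520687 on the minus strand. KRT6A (ENSG00000205420) lies at chr12:52487174-52493257 on the minus strand. KRT7 (ENSG00000135480) lies at chr12:52232520-52252186 on the plus strand. KRT8 (ENSG00000170421) lies at chr12:52897187-52949954 on the minus strand. KRT10 (ENSG00000186395) lies at chr17:40818117-40822595 on the minus strand. KRT14 (ENSG00000186847) lies at chr17:41582279-41586921 on the minus strand. KRT16 (ENSG00000186832) lies at chr17:41609778-41615899 on the minus strand. KRT17 (ENSG00000128422) lies at chr17:41619441-41624842 on the minus strand. KRT18 (ENSG00000111057) lies at chr12:52948871-52952901 on the plus strand. KRT19 (ENSG00000171345) lies at chr17:41523617-41528308 on the minus strand.

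The coding sequence near the end of the central rod, where a conserved motif closes the helix, is shown for 5 members because all 10 carry a form of it. Sequences are given 5′ to 3′ on the coding strand, and capitals mark the 13 of 21 bases that were identical in all 10 genes.
KRT6A: ACcTACcGcaagCTGCTgGAg
KRT8: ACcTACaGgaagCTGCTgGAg
KRT14: ACcTACcGccgcCTGCTgGAg
KRT19: ACcTACcGcagcCTGCTcGAg
KRT10: ACcTACcGcagcCTGCTaGAa

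The 3 KRT6 genes are near copies, which bears on how reads were divided among them. A 90-base stretch of the coding sequence (bases 658 to 747) is shown because it holds 10 of the positions at which they differ. Capitals in KRT6A mark positions where at least 1 copy has another base, and capitals in KRT6B and KRT6C mark bases unlike KRT6A. The KRT6A stretch lies at chr12:52491530-52491619 on the minus strand of GRCh38.
KRT6A: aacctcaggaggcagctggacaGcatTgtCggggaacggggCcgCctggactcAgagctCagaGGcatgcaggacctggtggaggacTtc
KRT6B: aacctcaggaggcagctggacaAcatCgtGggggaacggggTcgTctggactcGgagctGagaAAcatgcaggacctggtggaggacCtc
KRT6C: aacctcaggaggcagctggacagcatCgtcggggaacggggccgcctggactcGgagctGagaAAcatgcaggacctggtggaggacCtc

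The first 60 coding bases of KRT14, KRT16 and KRT17 are shown because these neighbouring genes start alike. Capitals in KRT14 mark positions where KRT17 has another base, and capitals in KRT17 mark the same positions. KRT14 and KRT16 were identical over these bases. The stretches lie on the minus strand at chr17:41586775-41586834 (KRT14), chr17:41612629-41612688 (KRT16) and chr17:41624450-41624509 (KRT17).
KRT14: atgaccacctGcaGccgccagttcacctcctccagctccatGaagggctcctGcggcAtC
KRT16: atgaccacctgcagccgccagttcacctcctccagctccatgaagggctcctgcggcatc
KRT17: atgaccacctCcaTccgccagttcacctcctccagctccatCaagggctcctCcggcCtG

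Levels are in FPKM (fragments per kilobase of transcript, adjusted for library depth), which allows different genes to be set side by side. Reads were not counted in the table; the spacing of its lowest values put 1 read on 1 kb at 0.0172 to 0.0246 FPKM and the deepest library at 1.43 times the depth of the shallowest. The FPKM of all genes summed to 348577, 338385, 322821 and 325580 in treated 5637, untreated 5637, treated T24 and untreated T24. Epithelial markers separated the lines: CDH1, which encodes E-cadherin, had 72.3 FPKM in treated 5637, 69.6 FPKM in untreated 5637, 0 in treated T24 and 0.0160 FPKM in untreated T24. The transcription factor ZEB1, a mesenchymal marker, had 0.179 FPKM in treated 5637, 0.0702 FPKM in untreated 5637, 8.38 FPKM in treated T24 and 8.46 FPKM in untreated T24. The other mesenchymal markers did not all follow ZEB1. In the same order of libraries, VIM was higher in 5637, at 267, 304, 61.4 and 67.95 FPKM. FN1 (191, 235, 1419 and 1530 FPKM) and CDH2 (26.7, 33.4, 45.6 and 48.5 FPKM) were higher in T24. Of the 5 fibroblast markers, DCN and LUM were listed at 0 in all 4 libraries, and COL1A1 was at 7.52 FPKM in treated 5637, 6.81 FPKM in untreated 5637, 0.870 FPKM in treated T24 and 0.900 FPKM in untreated T24. The others, COL1A2 and PDGFRA, were under 1 FPKM, and the leukocyte marker PTPRC was at 0 in 3 of them. Of the markers of other cell types, the macrophage marker CD68 was at 10.5 FPKM in treated and 7.08 FPKM in untreated T24, and the endothelial marker CDH5 at 0.777 FPKM in treated and 1.57 FPKM in untreated T24. Their part in the keratin values was not tested.

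The list made up most of the keratin RNA in both lines. The 10 genes summed to 4292 FPKM in treated 5637, 5123 FPKM in untreated 5637, 2069 FPKM in treated T24 and 2614 FPKM in untreated T24. They held 98.8%, 98.7%, 99.6% and 99.4% of the FPKM of all keratin genes in those libraries. The treated sum was 0.838 times the untreated sum in 5637 and 0.792 times in T24. In bulk RNA, fewer cells making a keratin and less keratin RNA in each cell cannot be told apart.

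KRT5, the type II keratin of basal cells, was at 283 FPKM in treated 5637, 331 FPKM in untreated 5637, and listed at 0 in both T24 libraries. KRT5 was therefore high in 5637 and without signal in T24. Its type I partner KRT14 was at 2.52 FPKM in treated 5637, 3.57 FPKM in untreated 5637, 0.233 FPKM in treated T24 and 0.381 FPKM in untreated T24. KRT14 was low in every library, so the partners were far apart in 5637: KRT5 was 112 times KRT14 in treated cells and 92.8 times in untreated cells. TP63, a transcription factor of basal cells that acts on KRT5 and KRT14, was at 19.2 FPKM in treated 5637, 27.9 FPKM in untreated 5637, 0 in treated T24 and 0.0232 FPKM in untreated T24. In the same order of libraries, the basal marker CDH3 was at 63.5, 67.6, 0.0372 and 0.0169 FPKM. The basal markers did not all follow KRT5: CD44 was high in both lines, at 296, 352, 373 and 341 FPKM.

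KRT6A, the type II keratin of wounded and squamous epithelium, was at 432 FPKM in treated 5637, 574 FPKM in untreated 5637, 0 in treated T24 and 0.0681 FPKM in untreated T24. The value in untreated T24 came to about 6.40 reads. KRT6A held 95.3% and 95.2% of the summed FPKM of the 3 KRT6 genes in treated and untreated 5637. Of the 150-base windows of its transcript, 200 of 2161 also occur in KRT6B or KRT6C, so its share rests in part on how the authors' tool divided reads. The 3 genes together were at 454 FPKM in treated and 603 FPKM in untreated 5637.

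KRT16, the usual type I partner of KRT6A, was at 2.61 FPKM in treated 5637, 4.39 FPKM in untreated 5637, 0.809 FPKM in treated T24 and 0.771 FPKM in untreated T24. It was low in both lines, below KRT6A by a factor of 165 in treated and 131 in untreated 5637. KRT17, a type I keratin of basal and activated cells, was at 324 FPKM in treated 5637, 404 FPKM in untreated 5637, 485 FPKM in treated T24 and 634 FPKM in untreated T24. It was the member of the basal and squamous group with a high level in T24. Exact copies of 150-base windows in other genes were few for KRT14 (9 of 1513) and KRT16 (11 of 1495), and KRT17 had 0.

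KRT7, a type II keratin of ducts and urothelium, was at 1089 FPKM in treated 5637, 1235 FPKM in untreated 5637, 782 FPKM in treated T24 and 1073 FPKM in untreated T24. It was the highest of the 10 in both T24 libraries. KRT19, a type I keratin of simple epithelia and urothelium, was at 1125 FPKM in treated 5637, 1388 FPKM in untreated 5637, 54.2 FPKM in treated T24 and 85.7 FPKM in untreated T24. KRT19 was the highest of the 10 in both 5637 libraries and ranked below KRT7, KRT8, KRT17 and KRT18 in both T24 libraries. KRT7 shares 282 exon bases, 6.89% of its exons, with the antisense gene KRT7-AS. KRT7 over KRT19 was 0.968 in treated 5637, 0.890 in untreated 5637, 14.4 in treated T24 and 12.5 in untreated T24.

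KRT8, the type II keratin of simple epithelia, was at 613 FPKM in treated 5637, 692 FPKM in untreated 5637, 505 FPKM in treated T24 and 555 FPKM in untreated T24. Its partner KRT18 was at 410.03 FPKM in treated 5637, 467 FPKM in untreated 5637, 227 FPKM in treated T24 and 256 FPKM in untreated T24. Both were above 200 FPKM in every library, and KRT8 over KRT18 was 1.49 and 1.48 in treated and untreated 5637 and 2.22 and 2.17 in treated and untreated T24. The KRT8 and KRT18 genes overlap on opposite strands over 525 exon bases, 7.63% of KRT8 and 16.3% of KRT18, and the libraries did not mark strand.

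KRT10, the type I keratin of differentiating epidermis, was at 10.9 FPKM in treated 5637, 24.7 FPKM in untreated 5637, 14.6 FPKM in treated T24 and 8.69 FPKM in untreated T24. The treated library was the lower one in 5637 and the higher one in T24, so the 2 lines overlapped. Its usual partner KRT1 was listed at 0 in all 4 libraries. KRT10 shares 56 exon bases, 2.61% of its exons, with the antisense gene KRT10-AS1, and without strand their reads there cannot be told apart. KRT10-AS1 was at 1.60 FPKM in treated 5637, 1.84 FPKM in untreated 5637, 1.78 FPKM in treated T24 and 1.71 FPKM in untreated T24.

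The order of the 10 levels was the same in both 5637 libraries: KRT19, KRT7, KRT8, KRT6A, KRT18, KRT17, KRT5, KRT10, KRT16 and KRT14. In T24 the order was KRT7, then KRT8 and KRT17 (KRT8 above KRT17 in treated cells, KRT17 above KRT8 in untreated cells), then KRT18, KRT19, KRT10, KRT16 and KRT14. With 1 library a group, whether neighbours in an order differ beyond replicate spread was not tested.

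**Figure D1:**
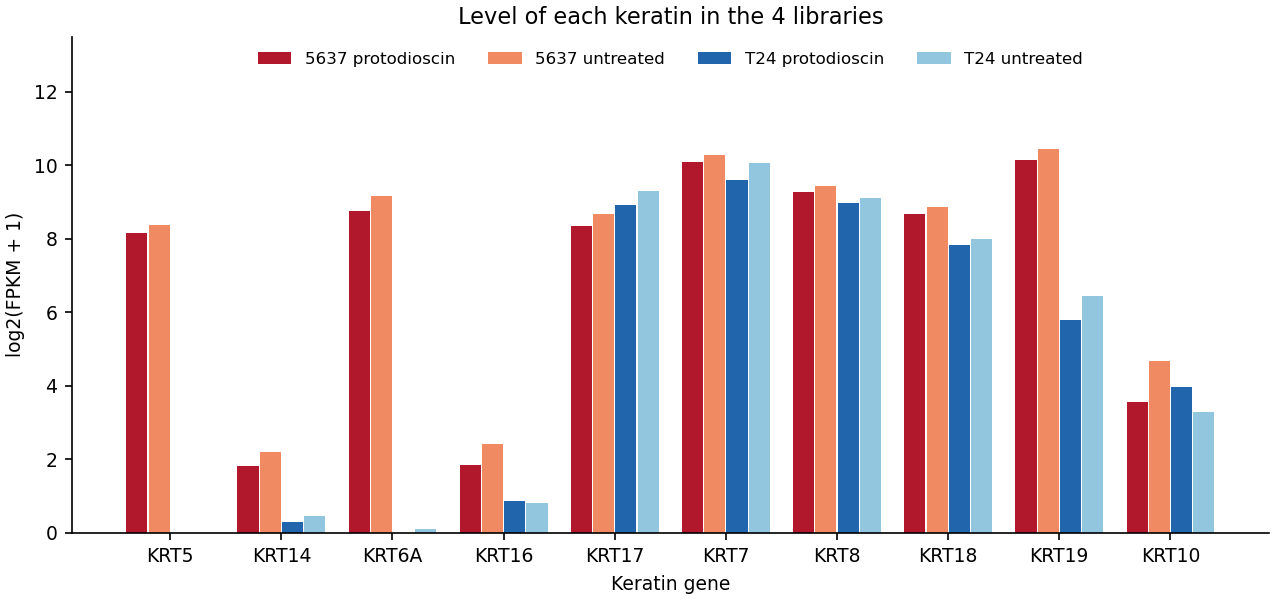
Level of each keratin as log2(FPKM + 1) in the 4 libraries, 1 bar per library. KRT5 and KRT6A reach 283 to 574 FPKM in 5637 and at most 0.0681 FPKM in T24, whereas KRT7, KRT8, KRT17 and KRT18 are above 200 FPKM in every library.

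The basal and squamous group (KRT5, KRT6A, KRT14, KRT16 and KRT17) held 24.3% of the list's FPKM in treated 5637, 25.7% in untreated 5637, 23.5% in treated T24 and 24.3% in untreated T24. These near-equal shares had different makeups. Without KRT17 the share was 16.8%, 17.8%, 0.0503% and 0.0467% in the same libraries. The group of simple epithelia (KRT7, KRT8, KRT18 and KRT19) held 75.4%, 73.8%, 75.8% and 75.4%. The summed type II keratins were 1.29, 1.24, 1.64 and 1.65 times the summed type I keratins.

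**Figure D2:**
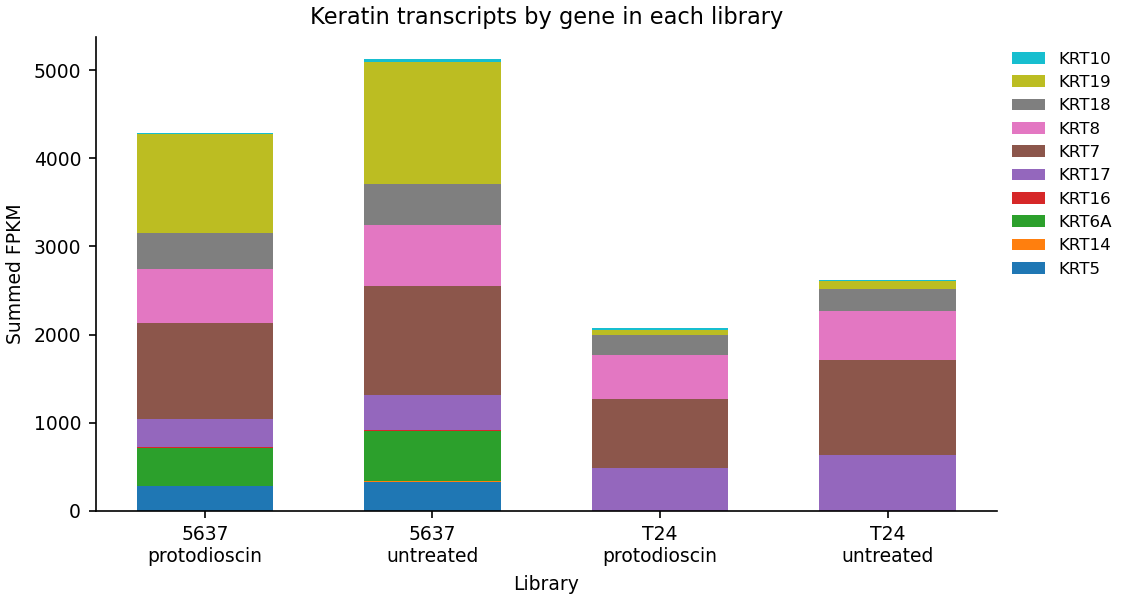
Summed FPKM of the 10 keratins in the 4 libraries, stacked by gene. KRT17 makes up nearly all of the basal and squamous part in T24. Without KRT17 that part is 0.0503% of the sum in treated and 0.0467% in untreated T24.

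The lines were compared by limma on log2(FPKM + 1) over all 4 libraries, with line and treatment as terms, and p-values were adjusted by Benjamini and Hochberg over 12893 genes. The labels do not say that the libraries came from separate cultures. With 1 library a group, the p-values measure no spread between replicates. They rest on the difference between the lines' responses to treatment and on a variance shared over genes. Of all genes tested, 68.9% passed an adjusted p of 0.05, with 33.9% higher and 35.1% lower in 5637, so a call between the lines was the usual outcome. KRT5, KRT6A, KRT14 and KRT16 entered the test through 5637 alone and had to be higher there, so they are left out of the counts. Of the 6 keratins at 1 FPKM or more in all 4 libraries, 4 were higher and 1 was lower in 5637, where 65.7% of 10992 such genes passed.

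KRT19 was 4.18 ± 0.093 higher in 5637 on the log2 scale (SE; limma adjusted p = 1.35e-06). KRT18 was 0.86 ± 0.060 higher (SE; limma adjusted p = 6.85e-05). KRT17 was the member called in the other direction, at -0.61 ± 0.063 for 5637 minus T24 (SE; limma adjusted p = 0.000308). KRT8 and KRT7 differed less, by 0.30 ± 0.064 and 0.34 ± 0.088 (SE; limma adjusted p = 0.00700 and 0.0148). The KRT7 call was lost under quantile scaling, with no filter on low values and without the treatment term, and the KRT8 call was lost with no filter. KRT10 did not pass, with a difference of 0.50 and a 95% interval of -0.42 to 1.42 (limma adjusted p = 0.273). Its difference was -0.40 between treated cells and 1.41 between untreated cells.

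**Figure D3:**
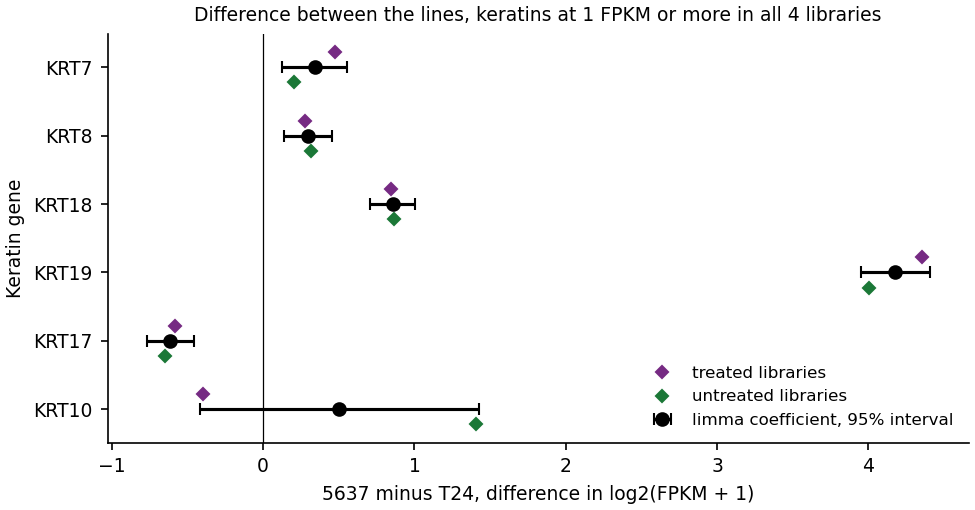
Difference 5637 minus T24 in log2(FPKM + 1) for the 6 keratins at 1 FPKM or more in all 4 libraries. The limma coefficient with its 95% interval is shown with points for the treated and untreated pairs of libraries. The values of KRT19 are 4.35 (treated) and 4.002 (untreated), and KRT10 is the gene whose values lie on both sides of 0, at -0.40 (treated) and 1.41 (untreated).

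Within 5637, the treated library had the lower level for 10 of the 10 keratins, where 38.5% of the 12635 genes compared were lower and 46.3% of the 488 genes at a mean of 100 FPKM or more. The share of all genes depended on scaling: 49.1% were lower under TPM scaling, 46.7% under quantile scaling and 53.7% under median-ratio scaling, where the median of all genes was -0.013. Genes under 1 FPKM in both libraries of a line were not compared there. The median difference of the 10 was -0.31 on the log2(FPKM + 1) scale, and that of all genes was 0.043. The differences were small: 2 of the 10 were at least 0.5 lower (1.11% of all genes) and 1 was at least 1 lower (0.214%). These were KRT16 at -0.58 and KRT10 at -1.11. The abundant members differed by -0.17 for KRT8, -0.18 for KRT7, -0.19 for KRT18, -0.22 for KRT5, -0.30 for KRT19, -0.32 for KRT17 and -0.41 for KRT6A. KRT14 differed by -0.38.

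Within T24, 6 of the 10 were compared, and the treated library had the lower level for 5 of them, against 44% of the 12193 genes compared and 51.3% of the 507 abundant genes. The median difference was -0.28, and that of all genes was 0.025. KRT19, at -0.65, was the 1 member at least 0.5 lower (2.23% of all genes). KRT10, at 0.69, was the 1 member at least 0.5 higher (1.03%), and none differed by 1 (0.484%). KRT7 differed by -0.46, KRT17 by -0.38, KRT18 by -0.17 and KRT8 by -0.14. The mitochondrially encoded genes held 11.9% of the FPKM in treated 5637, 9.84% in untreated 5637, 3.74% in treated T24 and 4.50% in untreated T24. With those genes left out of the total, the treated share of the 10 keratins was 0.833 times the untreated share in 5637 and 0.792 times in T24.

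**Figure D4:**
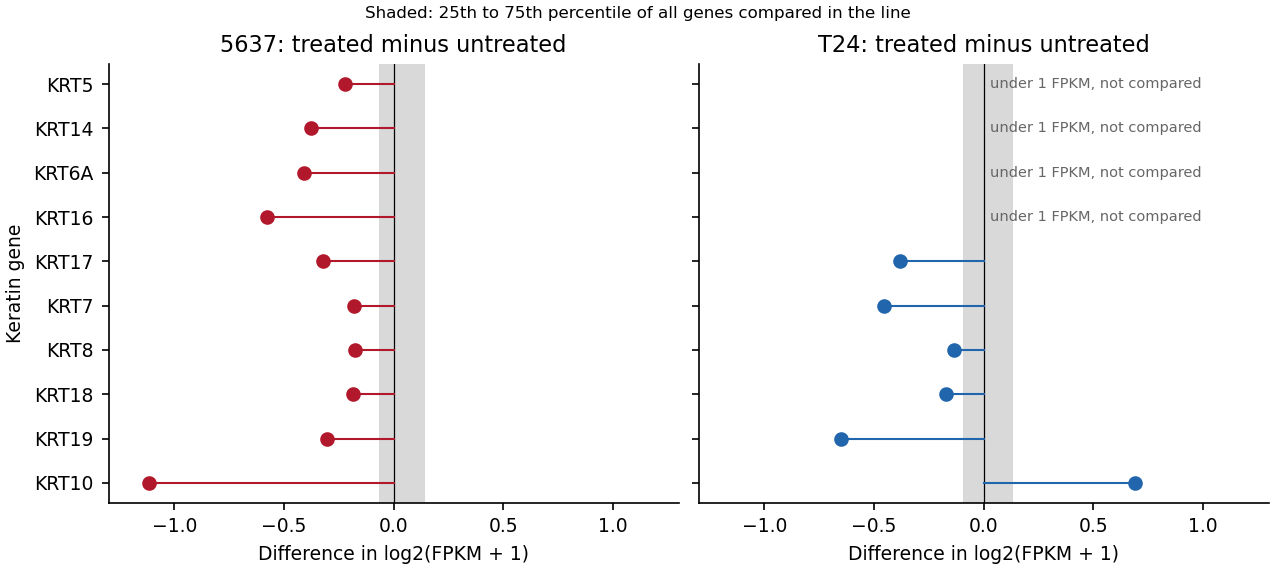
Treated minus untreated difference in log2(FPKM + 1) for each keratin in 5637 and T24, with the interquartile range of all genes compared shaded. KRT10 lies at -1.11 in 5637 and 0.69 in T24, and the other keratins compared lie between -0.65 and -0.14 in both lines.

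Over both lines, limma called no keratin for treatment, and none of the 12893 genes tested passed (0%, lowest adjusted p = 0.0784). At an unadjusted p of 0.05, 1227 genes passed (9.52%), of which 508 were lower in treated cells (3.94%). Among the keratins, 5 were past that unadjusted limit, all lower in treated cells, and 1 of them, KRT6A, entered the test through 5637 alone. KRT19 had an effect of -0.48 ± 0.093 and KRT17 of -0.35 ± 0.063 (SE; limma adjusted p = 0.468 for both). KRT7 followed at -0.32 ± 0.088 (SE; limma adjusted p = 0.482), KRT6A at -0.25 ± 0.093 (SE; limma adjusted p = 0.507; -0.58 with a pseudocount of 0.1 and -0.21 with one of 5) and KRT18 at -0.18 ± 0.060 (SE; limma adjusted p = 0.5002). KRT10 was at -0.21, with a 95% interval of -1.13 to 0.71 (limma adjusted p = 0.877). The split of genes at an unadjusted p of 0.05 depended on scaling: 719 were higher and 508 lower as deposited, and 412 were higher and 768 lower under median-ratio scaling.

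KRT10 had treated minus untreated differences of opposite sign in the lines, at -1.11 in 5637 and 0.69 in T24. The difference between these responses was -1.80, and it was not tested, since fitting it leaves no residual degree of freedom and the doses differed. Of 11417 genes compared in both lines, 10 were at least 0.5 lower in 5637 and at least 0.5 higher in T24, KRT10 among them. The reverse, at least 0.5 lower in T24 and at least 0.5 higher in 5637, was seen for 22 genes. For 24 genes, KRT10 included, the response difference was as far from 0 as that of KRT10 or farther. The approximate reads behind KRT10 were 1114 in treated 5637, 3047 in untreated 5637, 1620.1 in treated T24 and 751 in untreated T24. The antisense gene KRT10-AS1 differed by -0.12 in 5637 and 0.037 in T24.

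Among the other 44 keratin genes, 6 reached 1 FPKM in at least 1 library. All of those that were compared were lower in the treated library, 5 in 5637 and 3 in T24, where 38.5% and 44% of all genes were lower. KRT6B was at 10.01 FPKM in treated and 12.96 FPKM in untreated 5637, KRT6C was at 11.5 FPKM in treated and 16.1 FPKM in untreated 5637, and both were listed at 0 in T24. KRT80, a type II keratin, was at 15.9 FPKM in treated 5637, 19.7 FPKM in untreated 5637, 5.003 FPKM in treated T24 and 10.4 FPKM in untreated T24, a difference of -0.30 in 5637 and -0.93 in T24. KRT23, a type I keratin, was at 5.10 FPKM in treated 5637, 7.68 FPKM in untreated 5637, 0.0358 FPKM in treated T24 and 0.0502 FPKM in untreated T24. KRT34, a hair keratin, was at 0.272 FPKM in treated 5637, 0.352 FPKM in untreated 5637, 0.648 FPKM in treated T24 and 1.91 FPKM in untreated T24. KRT15, a keratin of basal cells, was at 7.58 FPKM in treated 5637, 7.68 FPKM in untreated 5637, 1.43 FPKM in treated T24 and 2.25 FPKM in untreated T24. The pseudogene KRT8P12 was at 4.18 FPKM in treated 5637, 3.97 FPKM in untreated 5637, 2.65 FPKM in treated T24 and 2.87 FPKM in untreated T24. KRT8P3 was at 1.06, 1.03, 3.05 and 3.49 FPKM in these libraries, and KRT127P was at 1.52 and 2.01 FPKM in treated and untreated 5637 and at 0 in T24. KRT20, the marker of luminal umbrella cells, was at 0.0183 FPKM in untreated 5637 and listed at 0 in the other 3 libraries. The lines therefore carried high levels of the simple keratins without this luminal keratin.

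Of 18 genes tested that tie keratin filaments to cell junctions, 16 were higher and 1 lower in 5637 by limma (5 of the 18, COL17A1 and PKP1 among them, entered the test through 5637 alone), where 33.9% of all genes were higher and 35.1% lower. As for all genes, 0 were called for treatment. COL17A1, which anchors basal cells to the basement membrane, was at 103 FPKM in treated 5637, 119 FPKM in untreated 5637, 0.572 FPKM in treated T24 and 0.609 FPKM in untreated T24. ITGB4, the hemidesmosomal integrin subunit, was at 347 and 403 FPKM in treated and untreated 5637, and 10.9 and 13.3 FPKM in treated and untreated T24. PKP1, a desmosomal plaque protein, was 4.44 higher in 5637 on the log2 scale. DST, which links filaments to hemidesmosomes, was the 1 linker lower in 5637, at -0.43. With treatment, 17 of the 18 linkers compared were lower in 5637 (median -0.16; 38.5% of all genes) and 8 of 13 in T24 (median -0.077; 44% of all genes), and none differed by 0.5.

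Squamous differentiation genes were detected mainly in 5637, where 7 of 21 were compared and 6 were lower in the treated library (median -0.37), beside 38.5% of all genes. The exception was SFN, the most abundant of the 21 and the 1 gene compared in T24. SFN was at 201 FPKM in treated 5637, 236 FPKM in untreated 5637, 109 FPKM in treated T24 and 119 FPKM in untreated T24. SPRR1B, a cornified envelope precursor, was at 7.65 FPKM in treated 5637, 13.2 FPKM in untreated 5637 and 0 in both T24 libraries, a difference of -0.72 in 5637. IVL, which encodes the envelope protein involucrin, was at 1.504 FPKM in treated 5637, 2.86 FPKM in untreated 5637 and 0 in both T24 libraries, a difference of -0.62. All 7 tested were higher in 5637 by limma, but 6 of them were under 1 FPKM in both T24 libraries and entered the test through 5637 alone, and 33.9% of all genes were higher. Of the 7, 0 were called for treatment. SPRR2A was 4.46 higher and SPRR2D 3.41 higher on the log2 scale, and both were among the genes tested through 5637 alone.

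Regulators of keratin genes were compared for 20 genes in 5637, of which 15 were lower in the treated library (median -0.11; 38.5% of all genes), and for 15 genes in T24, of which 7 were lower (median 0.039; 44% of all genes). TP63 differed by -0.51 in 5637. MYC, a growth-related transcription factor, was at 25.5 FPKM in treated T24 and 42.8 FPKM in untreated T24, a difference of -0.73, and at 57.0 and 67.2 FPKM in treated and untreated 5637. By limma, 0 regulators were called for treatment, and 13 were higher and 2 lower in 5637, with 5 of the 20 tested through 5637 alone; 68.9% of all genes were called. TP63 was 4.58 higher, GRHL2, a factor of epithelial identity, 4.02 higher, and OVOL1, another epithelial factor, 3.07 higher in 5637. TP63, GRHL2 and OVOL1 were all among the genes tested through 5637 alone, so they had to be higher there. FOXA1, a factor of luminal urothelium, was at -1.83 and TFAP2A, an epidermal factor, at -0.60 for 5637 minus T24. The other luminal markers tested did not follow FOXA1. PPARG was 1.31 higher in 5637, and GATA3, at -0.15, did not pass (limma adjusted p = 0.165). UPK1B, tested through 5637 alone, was 2.17 higher there.

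Of 9 other intermediate filament genes compared in 5637, 4 were higher and 5 lower in the treated library, and of 6 in T24, 4 were higher and 2 lower, where 38.5% and 44% of all genes were lower. By limma, 0 were called for treatment, and 5 were higher and 2 lower in 5637, a share of calls near the 68.9% of all genes. VIM, the filament protein of mesenchymal cells, was at 267 FPKM in treated 5637, 304 FPKM in untreated 5637, 61.4 FPKM in treated T24 and 67.95 FPKM in untreated T24. The neuronal filament genes INA, NEFL and NEFM, which entered the test through 5637 alone, were 4.19, 3.90 and 3.13 higher in 5637 on the log2 scale. The nuclear lamin genes LMNB1 and LMNB2 were at -0.44 and -0.40 for 5637 minus T24.

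The genes with profiles nearest to 2 members were sought by Euclidean distance between centred log2(FPKM + 1) values over the 4 libraries. Keratin genes, and genes without a symbol or with only a clone name, were left out, so a keratin may lie nearer than those named. For KRT6A they were MMP1 (0.341), S100A9 (1.34), ANO1 (1.66), WNT7A (1.89) and LAMA3 (1.95). MMP1, a collagenase, was at 1530 FPKM in treated 5637, 1912 FPKM in untreated 5637, 3.55 FPKM in treated T24 and 3.17 FPKM in untreated T24. For KRT10 they were TEN1 (0.282), A4GALT (0.454), PCDHGB3 (0.511), RHOB (0.519) and MIR3648-1 (0.533). Some of these rest on low levels. In treated 5637, untreated 5637, treated T24 and untreated T24, TEN1 was at 1.17, 2.91, 2.01 and 0.533 FPKM. PCDHGB3 was at 0.240, 1.11, 1.11 and 0.0804 FPKM in the same order. RHOB, a small GTPase, was at 36.8 FPKM in treated 5637, 48.6 FPKM in untreated 5637, 35.2 FPKM in treated T24 and 22.1 FPKM in untreated T24.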

How the data were processed

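Messenger RNA was measured in 4 libraries of established bladder cancer lines, 1 per line and treatment. Per the labels' protocols, libraries came from a polyadenylated RNA kit that does not mark strand and were sequenced as paired reads of 150 bases. The authors deposited FPKM per Ensembl gene; per the submitters' processing notes the tools were Trimmomatic, HISAT2 and StringTie and the build was GRCh38. Versions, annotation release and settings were not given in the sources used here. StringTie divides reads of overlapping or similar transcripts by an estimate, and an abundant gene lowers the FPKM of the others.

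Symbols, coordinates and coding sequences were taken from GENCODE 29. Differences were computed on log2(FPKM + 1), a scale that understates changes of low genes. limma 3.58.1 in R 4.3.3 was fitted with line and treatment as terms on the 12893 genes that reached 1 FPKM in 2 or more of the 4 libraries; 1 residual degree of freedom remains, which holds the difference between the lines' responses. The fit was tested on simulated data. The members and gene lists were chosen with earlier results of these data known. Named genes were the members, other keratins at 1 FPKM, list genes differing by 0.5 with treatment, and cell type markers. The 3 list genes most different between lines in each direction and the 5 nearest profiles outside the keratins were also named. Alternatives were pseudocounts, scalings, filters, size rules, prior variance, model terms and the removal of genes that share exons.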

Additional observations from a re-analysis of the deposited data

Results flagged for a closer look

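Signs were compared between the lines for keratin genes, keratin antisense genes and pseudogenes, and the median of the mitochondrially encoded genes. Of these measures, 5 had treated minus untreated differences of opposite sign in the 2 lines. The difference between lines was not tested for any of them. Genes of the other lists were not scanned in this way. Opposite signs occur there too, as for the median of the keratin gene regulators (-0.11 in 5637 and 0.039 in T24) and for ELF3 (-0.24 and 0.37). KRT10 was at -1.11 in 5637 and 0.69 in T24 on the log2(FPKM + 1) scale. Its antisense neighbour KRT10-AS1 was at -0.12 in 5637 and 0.037 in T24. The KRT8 pseudogene KRT8P12 was at 0.059 in 5637 and -0.084 in T24, and KRT8P3 was at 0.017 in 5637 and -0.15 in T24. The median of the 13 mitochondrially encoded genes was 0.32 in 5637 and -0.27 in T24.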

How the results depend on the processing

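No paired analysis was possible by replicate number because each group had 1 library and the labels give no replicate numbers. The limma fit did compare treated with untreated cells within each line, through its line term, and without that term 9 rather than 1227 genes were at an unadjusted p under 0.05 for treatment. No call between groups changed sign. The KRT10 line difference, which was not called, was 0.50 over all libraries and -0.40 between treated libraries, and the median of all genes in 5637 was 0.043 as deposited and -0.013 under median-ratio scaling. In every scaling tried, 10 of 10 keratins were lower in treated 5637. The number at least 0.5 lower in 5637, 2 as reported, was 1 with a pseudocount of 5 and 1 with a filter at 5 FPKM. The number differing by 1 in 5637, 1 as reported, was 0 with a pseudocount of 5 and 2 with a size rule of 0.5. In T24, 2 rather than 1 were at least 0.5 lower under quantile scaling, and 2 rather than 0 passed a size rule of 0.5. Over all genes, 2 were called for treatment with a pseudocount of 0.1 and 2 once genes with same-strand exon overlap were removed, against 0. The keratin sum in treated over untreated cells was 0.837 in 5637 and 0.790 in T24 over all keratin genes, 0.813 and 0.799 with TPM scaling, and 0.833 and 0.792 with TPM scaling without mitochondrially encoded genes. Over all keratin genes, type II over type I was 1.301 in treated 5637, 1.25 in untreated 5637, 1.65 in treated T24 and 1.66 in untreated T24, and the basal and squamous share with KRT6B and KRT6C added was 24.5%, 25.9%, 23.4% and 24.1%, or 24.7%, 26.1%, 23.5% and 24.2% with KRT15 added too. The KRT7 line call had adjusted p = 0.177 under quantile scaling, 0.140 with no filter and 0.0911 without the treatment term by limma, and KRT8 had 0.0715 with no filter; adjusted p over all alternatives ran from 0.00725 to 0.177 for KRT7 and from 0.00339 to 0.0715 for KRT8. The causes were not tested. Depth limits the keratins under 1 FPKM in T24, where KRT14 rests on about 20.1 reads in treated and 25.7 in untreated cells.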
